A study of Mus musculus with 10 samples.

Results

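The vomeronasal receptors are chemoreceptors of the vomeronasal organ, a sensory tube at the base of the nasal septum, and here they were looked for in the main olfactory epithelium. The table deposited for this tissue lists 330 genes named Vmn1r or Vmn2r followed by a number, and 83 of them had a mean normalized count above 0 over 10 libraries. These 83 genes, chosen by that mean, are the members described here, 34 of the 208 Vmn1r genes and 49 of the 122 Vmn2r genes, out of 24421 genes in the table. The mean chose them, so their detection and their level are descriptions and carry no test.

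The tissue came from untreated C57BL/6 mice of 6 months that carried either the human APOE3 allele (Apoe3 in the labels, 4 biological replicates) or the human APOE4 allele (Apoe4, 6 biological replicates). How the human allele was introduced, whether the mice were homozygous, their sex, and whether a replicate was a single mouse or a pool are not stated. Polyadenylated RNA was sequenced from both ends of each fragment, so what is called a read below may be a read pair. The comparison asks how the APOE4 allele differs from the APOE3 allele in its effect on this epithelium.

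Both receptor families are G protein-coupled receptors for pheromones and other social and predator cues. Type 1 receptors (Vmn1r) have a short N-terminus and are used by apical vomeronasal neurons together with the G protein subunit Gnai2. Type 2 receptors (Vmn2r) carry a large extracellular domain and are used by basal vomeronasal neurons together with Gnao1. Most vomeronasal neurons use very few receptor genes, but the type 2 receptors Vmn2r1 to Vmn2r7, called family C, are broadly shared among basal neurons. The main olfactory epithelium is instead dominated by neurons that each use an odorant receptor gene (Olfr), with a small set that use trace amine-associated receptors (Taar).

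Many of these receptors have near-identical copies, which bears on how a read can be assigned to a gene. The coding stretches below show this for 3 type 2 receptors: the member with the highest mean, the highest member of family C, and Vmn2r79, whose genotype groups did not overlap. Each is set against the closest other Vmn1r or Vmn2r gene of the table by coding sequence. Shown are the 120 coding bases in which the pair differed most, 5′ to 3′, from the GENCODE vM21 transcripts on GRCm38, with the bases that differ within the pair in capitals.

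Vmn2r29: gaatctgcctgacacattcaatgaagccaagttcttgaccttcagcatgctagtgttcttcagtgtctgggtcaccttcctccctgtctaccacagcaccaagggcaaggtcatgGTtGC
Vmn2r46: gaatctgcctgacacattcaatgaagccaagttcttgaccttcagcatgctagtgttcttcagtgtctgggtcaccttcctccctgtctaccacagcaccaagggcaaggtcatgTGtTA
Vmn2r1: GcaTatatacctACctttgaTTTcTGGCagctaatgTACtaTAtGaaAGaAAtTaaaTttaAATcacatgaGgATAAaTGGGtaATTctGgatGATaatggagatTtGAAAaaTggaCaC
Vmn2r2: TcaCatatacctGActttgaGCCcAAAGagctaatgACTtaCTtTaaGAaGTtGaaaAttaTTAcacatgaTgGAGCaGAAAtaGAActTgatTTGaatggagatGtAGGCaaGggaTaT
Vmn2r79: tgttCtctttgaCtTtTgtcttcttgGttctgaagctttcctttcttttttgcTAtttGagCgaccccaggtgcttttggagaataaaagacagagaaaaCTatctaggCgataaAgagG
Vmn2r78: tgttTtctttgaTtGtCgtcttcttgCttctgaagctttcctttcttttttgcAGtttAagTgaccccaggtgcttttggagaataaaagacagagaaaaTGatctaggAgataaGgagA

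Vmn2r29 (chr7:7231327-7247328, minus strand) and Vmn2r46 (chr7:9747811-9770571, minus strand) differed at 15 of 2427 aligned coding bases, and no window of 120 bases held more than 4 differences. Of the 2308 windows of that length, 63.0% were identical in the pair. A fragment lying in such a window cannot be assigned to 1 of the genes by its sequence, and the treatment of reads with several matches is not stated. Vmn2r46 itself was listed at 0. Vmn2r1 (chr3:64081547-64109484, plus strand) and Vmn2r2 (chr3:64115278-64141928, minus strand) were 88.2% identical. Vmn2r79 (chr7:86996115-87044941, plus strand) and Vmn2r78 (chr7:86915094-86955312, plus strand) were 96.0% identical, with 2.22% of the windows the same.

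Most members were present near the lowest levels that sequencing of this depth records, with Vmn2r29 the clearest exception. In the authors' deposited table the summed mean normalized count was 13.0 for the Vmn1r genes and 54.9 for the Vmn2r genes, together 3.91 per 1000000 normalized counts. The odorant receptors summed to 52326, or 3008 per 1000000. A mean of at least 1 was reached by 3 Vmn1r and 12 Vmn2r genes, and a mean of at least 10 by Vmn2r29 alone, against 822 of 1125 Olfr genes and 12 of 15 Taar genes. The libraries held an estimated 14938522 to 20105203 assigned reads, from the sum of all means and each library's scale.

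Levels were compared between genes per kb of exon in GENCODE vM21, which may not be the annotation the authors counted on. On that scale the median over detected genes was 0.0451 mean normalized counts per kb for Vmn1r, 0.0408 for Vmn2r, 8.31 for Olfr and 43.2 for Taar. Vmn2r29 was the highest member at 4.24 per kb, and 32.5% of the Olfr genes with an annotated length lay below it. The next were Vmn2r57 at 1.08, Vmn1r21 at 0.596, Vmn2r1 at 0.514 and Vmn2r27 at 0.463 per kb. Vmn1r32 had 0.392 and Vmn1r181 0.317 per kb. Those levels rest on 11 to 72 reads over 10 libraries, Vmn2r29 aside, so the order among the neighbours after Vmn2r57 is not resolved.

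**Figure D1:**
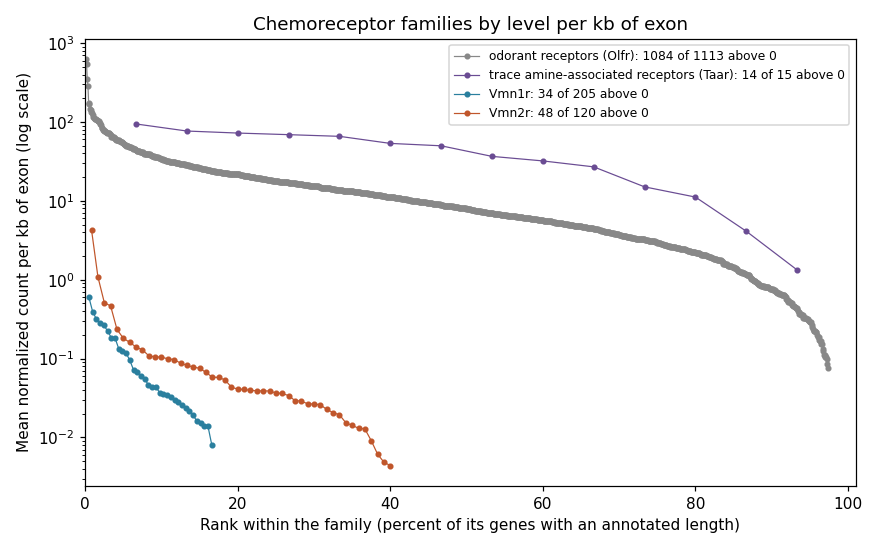
Mean normalized count per kb of exon (log scale) for each gene above 0, ranked within its family as a percent of the family's genes with an annotated length. The Olfr and Taar curves run over most of their genes, while the Vmn1r and Vmn2r curves stop at 34 and 48 genes and Vmn2r29, at 4.24 per kb, is the highest of them, above 32.5% of the Olfr genes.

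The deposited mean of a gene with few reads is a sum of whole reads, each divided by its library's scaling factor. Single-read genes gave the scaling factors, and the reads of each library were then solved for. All 3670 genes with a mean up to 4 had exactly 1 solution, and so did Vmn2r57 at a mean of 7.11. The solution for Vmn2r57 is less certain: 0.079 other solutions were expected by chance at its mean, against 4.5e-04 at a mean of 4. Vmn2r29 was too abundant to solve, so 82 members have reads per library and Vmn2r29 has only its mean. The libraries are lettered by falling scaling factor within each genotype (Apoe3 libraries A to D, Apoe4 libraries A to F), since nothing ties them to the replicate numbers. The genotype of each library was taken from the sign of the deposited fold change of its single-read genes: 6 libraries gave positive and 4 negative values, as the numbers of replicates require.

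The 82 members held 483 reads in all. A single read accounted for 27 members, 2 reads for 12, between 3 and 9 for 27, and at least 10 for 16. The lowest mean, 0.0865 in the authors' deposited table, is that of 1 read in Apoe4 library A. It was shared by 7 members, Vmn1r206, Vmn1r52, Vmn2r120, Vmn2r121, Vmn2r32, Vmn2r6 and Vmn2r87. Just above it lay Vmn1r202, with 1 read in Apoe3 library A. Just outside the rule lay the 247 genes with no read, for which a count of 0 allows a mean of up to 0.298 normalized counts (3 reads over the 10 libraries, counting error only). Reads in a single library accounted for 41 members, and 19 members had reads in 5 or more libraries.

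**Figure D2:**
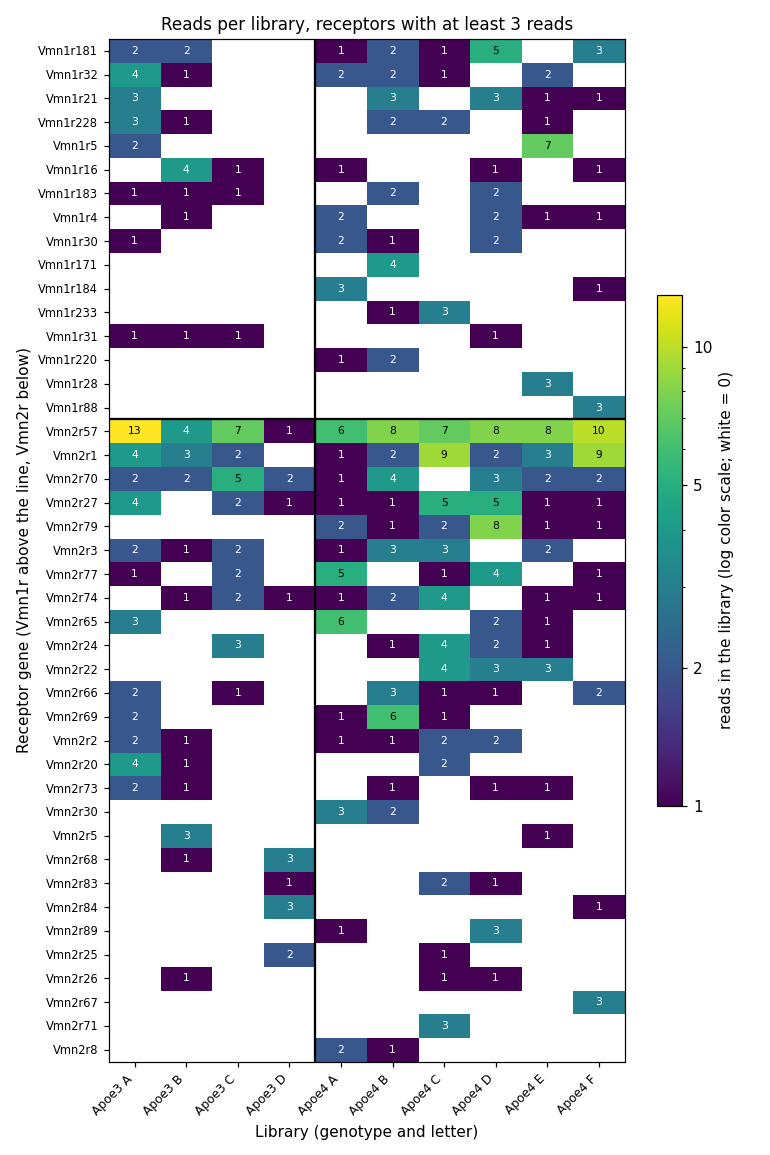
Reads in each of the 10 libraries (columns) for the 43 solved members with at least 3 reads (rows, Vmn1r above the horizontal line), with white for 0 and color on a log scale. Vmn2r57 has reads in every library, from 1 to 13, and most other rows are white in several libraries of both genotypes.

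Among the type 2 receptors, Vmn2r29 had a mean normalized count of 20.4 in the authors' deposited table, 37.1% of the summed Vmn2r mean. Its exons overlap those of Gm45844, an annotated gene that spans the locus and was not in the table under that symbol. Vmn2r57 (chr7:41395945-41448696) had 13, 4, 7 and 1 reads in the Apoe3 libraries, and from 6 to 10 with a median of 8 in the Apoe4 libraries. The Apoe4 libraries were alike, while the Apoe3 libraries spread on both sides of them. In normalized reads this was 5.97 ± 4.49 (SD, n = 4) against 7.88 ± 1.99 (SD, n = 6). Exons of Vmn2r57 are overlapped by Gm17102 and Gm20449.

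Family C contributed 63 reads, 18% of the solved Vmn2r reads, with 5 of its 7 genes detected. Vmn2r1 had 4, 3, 2 and 0 reads in the Apoe3 libraries, and from 1 to 9 with a median of 2.5 in the Apoe4 libraries. Apoe4 libraries C and F, at 9 reads each, stood above the other 8 libraries, and the groups overlapped. The means were 2.11 ± 1.51 (SD, n = 4) and 4.46 ± 3.94 (SD, n = 6) normalized reads. Vmn2r3 had 2, 1, 2 and 0 reads in the Apoe3 libraries and from 0 to 3 with a median of 1.5 in the Apoe4 libraries. Vmn2r2 had 9 reads in 6 libraries, Vmn2r5 had 4 in 2 libraries and Vmn2r6 had 1, and Vmn2r4 and Vmn2r7 had none. Apoe3 library D, the library of lowest estimated depth, held no family C read.

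Vmn2r70 had 2, 2, 5 and 2 reads in the Apoe3 libraries and from 0 to 4 with a median of 2 in the Apoe4 libraries. Vmn2r27 had 4, 0, 2 and 1 reads in the Apoe3 libraries and from 1 to 5 with a median of 1 in the Apoe4 libraries. Both were thus found in 9 of 10 libraries at similar numbers. Vmn2r77 had 14 reads, Vmn2r74 had 13, and Vmn2r24 had 11, each with libraries at 0 in both genotypes. Exons of Vmn2r70 overlap Vmn2r71, and those of Vmn2r24 overlap Vmn2r25, so reads of these neighbours are uncertain. Vmn2r26, a receptor known to respond to peptides bound by MHC class I, had 3 reads in 3 libraries. Vmn2r116, the receptor of the male tear peptide ESP1, was listed at 0.

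Among the type 1 receptors, Vmn1r181 had the most reads, 2, 2, 0 and 0 in the Apoe3 libraries and from 0 to 5 with a median of 1.5 in the Apoe4 libraries. Vmn1r32 had 4, 1, 0 and 0 reads in the Apoe3 libraries and from 0 to 2 with a median of 1.5 in the Apoe4 libraries. Vmn1r21 had 3, 0, 0 and 0 against a range of 0 to 3 with a median of 1. For all of them the groups overlapped, and Apoe3 library D had no read. Vmn1r5 differed in form: it had 2 reads in Apoe3 library A, 7 in Apoe4 library E and none elsewhere. The remaining genes of the 10 highest, Vmn1r228, Vmn1r16, Vmn1r4, Vmn1r183, Vmn1r30 and Vmn1r31, had 4 to 9 reads each.

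Subfamilies of type 1 receptors were taken from the older names that RefSeq lists for 127 of the 208 genes. Members fell in 9 of 11 subfamilies. V1rg and V1rj were among these only through Vmn1r84 (1 read) and Vmn1r85 (2 reads), all in Apoe4 library E. The V1rc genes gave 7 members of 31 and the V1rh genes 6 of 20. The V1rd and V1re genes gave 4 each, of 20 and 13. None of the 6 V1rb genes had a read, among them Vmn1r49, known as a receptor for 2-heptanone. Vmn1r85, known to respond to sulfated steroids, had 2 reads, both in Apoe4 library E. Its relative Vmn1r89 was listed at 0.

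Detection differed between gene clusters, defined as receptor genes of either family less than 1 Mb apart on GRCm38. Of 26 such clusters 19 held a member. The 15 genes from Vmn2r65 to Vmn2r79 (chr7:84935565-87044941) stood apart, with reads for 14 of them and only Vmn2r75 at 0. Of the other 105 Vmn2r genes with a position 34 were detected, 32.4%. The family C cluster on chromosome 3 had 5 of 7 genes detected, and the cluster from Vmn2r19 to Vmn2r27 on chromosome 6 had 6 of 9. The largest cluster, 65 Vmn1r genes on chromosome 7, had 4 members, and 7 clusters, the largest of them with 12 and 7 genes, had none. The Vmn2r65 to Vmn2r79 cluster was singled out after its values were seen.

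**Figure D3:**
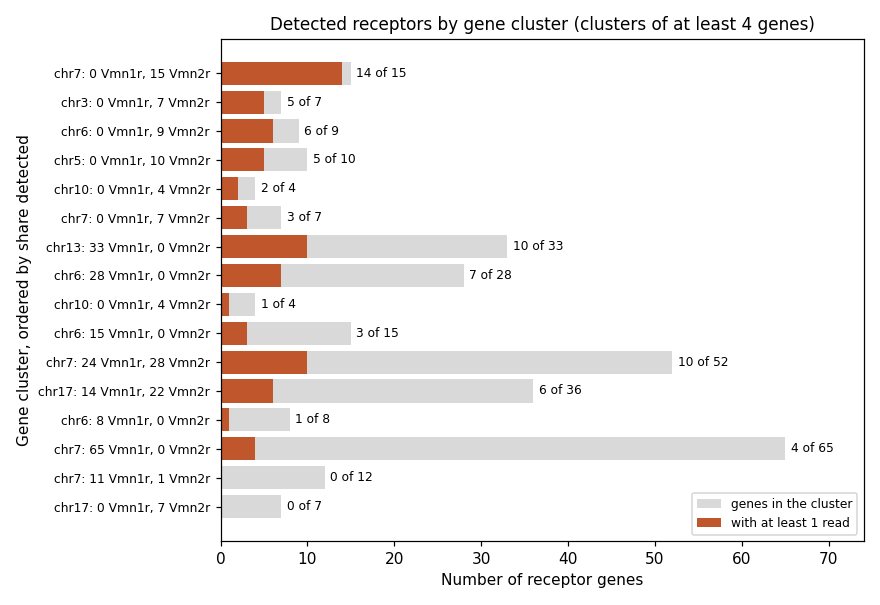
Receptor genes in each cluster of at least 4 genes (grey bars, number of genes) and those with at least 1 read (orange), ordered by the share detected. The cluster of 15 Vmn2r genes on chromosome 7 has 14 detected, while the cluster of 65 Vmn1r genes on the same chromosome has 4.

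The 14 detected genes of the Vmn2r65 to Vmn2r79 cluster held 118 reads, 33.7% of the solved Vmn2r reads. Every library had some: 12, 7, 10 and 7 reads in the Apoe3 libraries, and from 8 to 19 with a median of 14 in the Apoe4 libraries. Different genes carried them in different libraries. Vmn2r69 had 6 of its 10 reads in Apoe4 library B, Vmn2r65 had 6 of 12 in Apoe4 library A, and all 3 reads of Vmn2r67 were in Apoe4 library F. This cluster lies among odorant receptor genes on the chromosome, at a median of 299 kb from the nearest Olfr gene, with Vmn2r76 22.2 kb from Olfr310. Among the Vmn2r genes with an Olfr gene on their chromosome, 22 of the 31 within 1 Mb of an Olfr gene were detected (71.0%), against 20 of 78 farther away (25.6%). Chromosome 5 holds 11 further Vmn2r genes and no Olfr gene of the table, and 6 of them were detected. With these counted as far, the share was 26 of 89 (29.2%). Among Vmn1r genes with an Olfr gene on their chromosome the shares were 8 of 25 (32.0%) and 26 of 179 (14.5%). Each of these 8 near Vmn1r genes had only 1 read. For Vmn1r189, Vmn1r191, Vmn1r193, Vmn1r194 and Vmn1r205 that read was in Apoe4 library E, so this contrast leans on 1 library. With the Vmn2r65 to Vmn2r79 cluster set aside, 8 of 16 Vmn2r genes near an Olfr gene remained detected. The part of nearness to odorant receptor genes in which genes were detected was not tested.

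Detected and undetected genes also differed in length and in the closeness of their copies, as descriptions of what was detected. The median exon length was 5018 bases for detected and 2880 for undetected Vmn1r genes, and 7949 against 6085 for Vmn2r genes. Identity was taken to the closest other gene named Vmn1r or Vmn2r plus a number. Its median was 92.6% for detected and 95.7% for undetected Vmn1r genes, and 94.6% against 96.0% for Vmn2r genes. An identity of at least 99% was found for none of the detected Vmn1r genes with a value and for 39 of 165 undetected ones. For Vmn2r genes it was found for 5 of 47 detected and 18 of 72 undetected ones. These counts leave out copies under other names, which detected and undetected genes both had. Detected Vmn1r52 was 99.3% identical to V1ra8, Vmn2r62 99.5% to Gm9268 and Vmn2r5 99.1% to Gm26939. Detected Vmn1r183 was 100% identical to Gm36694, but the exons of these 2 annotated genes overlap, so this is not a separate copy. Undetected Vmn1r93 was 100% identical to Gm10666. The part of length and of shared sequence in which genes were detected was not tested.

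The 39 members with 1 or 2 reads were spread unevenly over the libraries. Apoe4 library E held 12 of the 27 single reads, on Vmn1r189, Vmn1r191, Vmn1r193, Vmn1r194, Vmn1r205, Vmn1r43, Vmn1r84, Vmn2r103, Vmn2r12, Vmn2r15, Vmn2r56 and Vmn2r59. Apoe4 library A held 7, while Apoe3 libraries B and C and Apoe4 libraries B and C held none. Over all genes Apoe4 library E held 117 of 517 single reads (22.6%), the most of any library, and its estimated depth of 16696254 reads was the fourth lowest. Of the 12 members with 2 reads, 9 had both in 1 library (75.0%), against 223 of 392 genes with 2 reads over the whole table (56.9%). Of the 8 members with 3 reads, 4 had all of them in 1 library, against 74 of 265 genes (27.9%). Of the 9 members with 4 reads, 1 had all of them in 1 library (11.1%), against 31 of 219 genes (14.2%). It was Vmn1r171, in Apoe4 library B. Whether such reads come from separate RNA molecules cannot be seen in these values.

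The epithelium was checked against markers of the sources that could carry these receptors. Trpc2, the cation channel that vomeronasal neurons need for transduction, was listed at 0, as was the overlapping Xntrpc. Xndc1, annotated at the same locus, had a mean of 96.7 in the authors' deposited table. How reads shared by overlapping genes were counted is not stated, so the values of 0 for Trpc2 and Xntrpc are uncertain. Of the 5 formyl peptide receptors of vomeronasal neurons, Fpr-rs3, Fpr-rs4 and Fpr3 were listed at 0, Fpr-rs6 had 1 read and Fpr-rs7 had no row. Tfap2e, a transcription factor of basal vomeronasal neurons, had 3 reads. The other 7 genes of that list, factors and guidance molecules, had means from 720 (Meis2) to 17564 (Kirrel2) in the authors' deposited table, with 1385 for Bcl11b and 1133 for Fezf1. In the authors' deposited table the nonclassical MHC genes H2-M10.3, H2-M10.6 and H2-M10.5, partners of type 2 receptors, had means of 75.9, 65.8 and 11.2. The other 6 genes of that list lay between 0.101 (H2-M10.1) and 2.63 (H2-M1), with 1 to 26 reads each. Gnai2 and Gnao1, which many other cells use, had 2771 and 3621. Lcn3 and Lcn4, the lipocalins listed for vomeronasal glands, had 7283 and 4760.

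The tissue's own markers were high in the authors' deposited table, with means of 113676 for Omp, the marker of mature olfactory sensory neurons, and 63585 for Cyp2g1, a sustentacular cell enzyme. Of the Grueneberg ganglion list, Gucy2g had a mean of 1.42, Cnga3 of 7.60 and Pde2a of 359 in the authors' deposited table, and Vmn2r83, a receptor of that organ, had 4 reads in 3 libraries. Detected were 7 of 8 genes of vomeronasal transduction, 8 of 8 of vomeronasal neuron factors and guidance, and 9 of 9 of the nonclassical MHC genes. So were 2 of 2 vomeronasal gland genes, 4 of 4 Grueneberg ganglion genes and 1 of the 4 formyl peptide receptors with a row. Of the other lists, 10 of 10 olfactory neuron genes, 4 of 4 sustentacular genes and 4 of 4 solitary chemosensory cell genes were detected. Detection here needs only a mean above 0, which 20879 of all 24421 genes had (85.5%). Across the 9 lists, 0 genes passed an adjusted p of 0.05 in the authors' deposited Wald test (37 genes tested). An unadjusted p under 0.05 was found for 4, Bcl11b, Fezf1, Stoml3 and Cyp2g1. Over all genes the shares were 0.779% at the adjusted and 8.36% at the unadjusted p. In bulk tissue, fewer cells of a type and less RNA per cell cannot be told apart. The part of vomeronasal or ganglion tissue in the members' reads was not tested.

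Between the genotypes, 0 of the 83 members passed the authors' adjusted p of 0.05. Only Vmn2r29 had an adjusted p at all, 0.928, and the other 82 carry the authors' status Low and fall outside their adjustment. Of all genes, 125 of 16050 passed in the authors' deposited table, 0.779%. With the deposited p-values adjusted over all 20776 genes that have one, 117 genes (0.563%) and 0 members passed, and the lowest adjusted p of a member was 0.604. At an unadjusted p of 0.05, 1736 genes (8.36%) and again 0 members passed. What size of difference this depth could show for the members was not tested.

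The deposited fold changes of the members were small because they are shrunken toward 0. In the authors' deposited table they ran from -0.02 for Vmn2r70 to 0.07 for Vmn2r79 on the log2 scale, positive for higher values in Apoe4, and members with a single read had values of at most 0.0093 in size. The members' median in the authors' deposited table was 0.0061, beside 0.0031 over all 20879 genes with a value and 0.0041 over the 3670 genes with a mean up to 4. Of the members 62 were positive and 21 negative, 74.7% positive, against 51.9% of all genes and 55.3% of those with a mean up to 4. The median includes 43 members with reads in Apoe4 libraries only and 9 in Apoe3 libraries only, for which the fitted value is no measure of size. Without Apoe4 library E the first number was 25. Apoe4 made up 6 of the 10 libraries. Of the members with 1 read, 22 of 27 had it in an Apoe4 library (81.5%), against 352 of 517 genes over the whole table (68.1%). Reads in Apoe4 libraries only were found for 8 of 12 members with 2 reads (66.7%), against 220 of 392 genes (56.1%). With 3 reads the numbers were 6 of 8 members (75.0%) against 104 of 265 genes (39.2%). With 4 reads they were 4 of 9 (44.4%) against 70 of 219 (32.0%). Over the 30 solved members with reads in both genotypes the median was 0.0072 as deposited and 0.45 as the log2 ratio of the solved group means. Of these 30, 19 were higher in Apoe4. Of the 16 members with at least 10 solved reads, 15 had the higher mean in Apoe4. Among all genes with a mean up to 4 and at least 10 reads it was 779 of 1524 (51.1%), and among the Olfr genes of these 57 of 87 (65.5%). The difference between these shares was not tested. For members with reads in a single library the sign follows from how the libraries were given a genotype. Among the 41 members with reads in more libraries, the sign of the deposited fold change matched the difference of the solved group means in 40. The exception, Vmn1r32, had nearly equal means of 1.11 and 1.12 normalized reads.

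**Figure D4:**
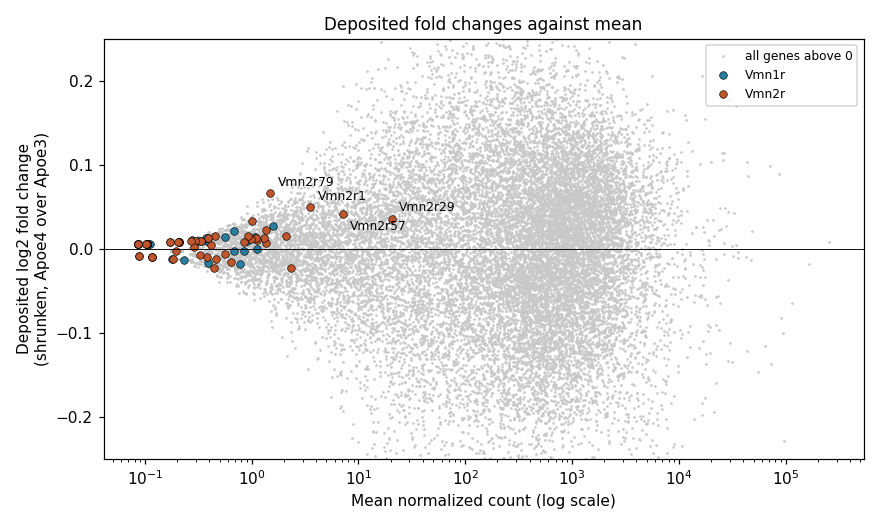
The deposited, shrunken log2 fold change (Apoe4 over Apoe3) against the mean normalized count (log scale) for all genes above 0 (grey) and the members (blue Vmn1r, orange Vmn2r), with 356 genes beyond the axis limits. The members lie at the left between -0.02 and 0.07, where the deposited values of all genes narrow toward 0.

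Vmn2r79 had the smallest p of the members. It had no read in any of the 4 Apoe3 libraries and from 1 to 8 with a median of 1.5 in the Apoe4 libraries, 15 reads in all. Every Apoe4 library was thus above every Apoe3 library, and Apoe4 library D alone held 8 of the reads. The Apoe4 mean of Vmn2r79 was 3.32 times a floor of 3 reads over the Apoe3 group, and 1.81 times without Apoe4 library D. The error of the Apoe4 mean is left aside in these values. In the authors' deposited table its log2 fold change was 0.07 ± 0.03 (SE), with an unadjusted p of 0.053 in the authors' Wald test and no adjusted p. Of the 16 members with at least 10 solved reads, 1 (Vmn2r79) had Apoe4 libraries all above the Apoe3 libraries, and 0 had them all below. Vmn2r79 reached 10 reads through its Apoe4 libraries alone. Among all 1524 genes with a mean up to 4 and at least 10 reads, 8 (0.525%) lay all above and 9 (0.591%) all below.

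The next smallest p-values toward higher levels in Apoe4 belonged to Vmn2r22, Vmn2r1, Vmn2r30 and Vmn1r4, with unadjusted p from 0.175 to 0.382 in the authors' deposited table. Vmn2r22 had no read in the Apoe3 libraries, 4, 3 and 3 in Apoe4 libraries C, D and E, and none in the other Apoe4 libraries. Its Apoe4 mean of 1.68 ± 1.86 (SD, n = 6) normalized reads was 2.24 times the same floor, with the error of that mean left aside. Like Vmn2r79, it reached 10 reads through its Apoe4 libraries alone. Vmn2r30 had 5 reads, all in Apoe4 libraries A and B. Toward lower levels in Apoe4 they belonged to Vmn2r68, Vmn1r180, Vmn2r72, Vmn1r71 and Vmn1r31, with unadjusted p from 0.171 to 0.379 in the authors' deposited table. Vmn2r68 had 1 read in Apoe3 library B and 3 in Apoe3 library D, and none in Apoe4. The genes of this second list rest on 2 to 4 reads each.

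Summed over the solved members, the Apoe4 libraries held more reads than the Apoe3 libraries. The Vmn1r sum was 19, 12, 3 and 3 reads in the Apoe3 libraries and from 7 to 28 with a median of 15.5 in the Apoe4 libraries. In normalized reads it was 8.61 ± 6.46 (SD, n = 4) against 15.96 ± 7.64 (SD, n = 6), with the groups overlapping. The Vmn2r sum was 42, 21, 27 and 16 reads in the Apoe3 libraries and from 31 to 52 with a median of 39 in the Apoe4 libraries. In normalized reads it was 26.0 ± 8.70 (SD, n = 4) against 40.2 ± 7.41 (SD, n = 6). Of the Apoe3 libraries, A reached the Apoe4 range for Vmn2r, and the other 3 lay below it.

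For the solved members of both families together the Apoe4 mean was 1.62 times the Apoe3 mean, and 1.45 to 1.98 times with any 1 library left out. Vmn2r29, which could not be solved and made up 30.0% of the members' summed mean, is not part of this sum. The sum is over genes that were chosen by their mean, so it is given without a test. The same sum over the 149 odorant receptor genes with a mean up to 4 was 196 ± 28.6 (SD, n = 4) in Apoe3 and 238 ± 24.4 (SD, n = 6) in Apoe4, 1.22 times higher. Over all 3670 genes with a mean up to 4 the Apoe4 mean was 0.984 times the Apoe3 mean. The groups also differed in sex-linked genes: in the authors' deposited table the Y-linked Eif2s3y had a log2 fold change of -3.72 and Xist of 6.41. Genotype and the sex makeup of the groups cannot be told apart in these values.

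**Figure D5:**
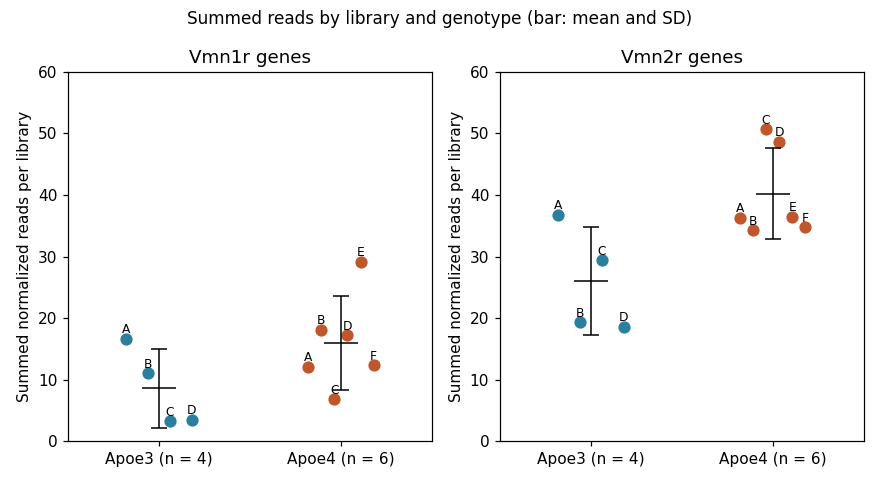
Summed normalized reads of the solved Vmn1r (left) and Vmn2r (right) members per library, with the library letter, and the mean and SD of each genotype. For Vmn2r, 3 of the 4 Apoe3 libraries lie below all 6 Apoe4 libraries. For Vmn1r, Apoe4 library E is the highest at 29.2.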

How the data were processed

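Reads from 10 libraries (4 Apoe3, 6 Apoe4) were processed with STAR, featureCounts and DESeq2 on GRCm38, per the submitters' processing notes, which give no roles, versions or counting options. The authors deposited 1 table: a mean normalized count per gene over all libraries (a signal, not a count), a log2 fold change with its standard error on the log2 scale, a Wald statistic (a score), a p-value, an adjusted p-value and a status. No column holds single-library values. Counts per library were not analysed here as such, so no count model was fitted, and every gene test is the authors' deposited Wald test with its Benjamini-Hochberg adjusted p.

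Members are symbols Vmn1r or Vmn2r plus a number with a mean above 0. Reads per library were solved from the means in Python 3.11.15 (numpy 2.4.6, pandas 2.3.3): levels shared by at least 10 genes with a mean up to 0.13 gave the scaling factors (0.859 to 1.16), and whole-number combinations within 3e-14 of a mean were listed up to a mean of 4, and for single genes up to 8. The solving step was tested on simulated data with means up to 4 and known scaling factors, so not at the mean of Vmn2r57. Positions, exon lengths and coding sequences are GENCODE vM21 (82 members matched). Close copies were found with BLAST 2.17.0 over at least 50% of the coding sequence. Genes named are the 10 highest members of each family, the 5 smallest p in each direction, the 3 lowest of each family, family C and up to 4 genes per marker list. Members and lists were chosen with earlier results of these data known. Vmn1r85, Vmn1r49, Vmn1r89, Vmn2r26, Vmn2r116, Vmn1r171 and the other genes named were chosen for their known role or after their values were seen. Alternatives were thresholds on the mean, pseudogenes, overlapping genes, libraries left out, other adjustments, undone shrinkage and the matching tolerance.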

Additional observations from a re-analysis of the deposited data

Results flagged for a closer look

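Among the 16 members with at least 10 reads and the 3 summed totals, 7 of 38 groups of libraries held a value set apart from its group by Dixon's ratio (the gap to the nearest library over the group's range, at its 95% limit). Chance marks about 1 group in 20 of normally distributed values, a rate that need not hold for so few reads. In 4 of the 7 marked groups all reads came from 1 library, which fixes the ratio at 1. Whether 7 of 38 is more than such counts give was not tested. In Apoe3, Vmn1r21 had 3 reads in library A and 0 in the others, a ratio of 1. In the same way Vmn2r24 had 3 in library C, Vmn2r65 had 3 in library A and Vmn2r69 had 2 in library A, each with a ratio of 1. Vmn2r70 had 5 reads in Apoe3 library C against 2 in each of the others, with a ratio of 0.844. In Apoe4, Vmn2r79 had 8 reads in library D against 1 or 2 in the others, with a ratio of 0.861. Vmn2r69 had 6 reads in Apoe4 library B against 0 or 1 in the others, with a ratio of 0.8294.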

How the results depend on the processing

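The number of detected members, 83, depends on the threshold. It was 74 at a mean of at least 0.1, 15 at 1 and 1 at 10. Adding annotated pseudogenes gave 85, and leaving out members that overlap another gene gave 67. With each library left out in turn it lay between 65 (without Apoe4 library E) and 83. The count of 0 called members held under both other p-value rules. The median log2 fold change of 0.0061 became 2.22 with the shrinkage undone approximately, a value set by members with reads in 1 genotype only, and 0.0153 over members with a mean of at least 1. The summed Vmn2r mean of 54.9 fell to 34.5 without Vmn2r29, and to 22.6 without members that overlap another gene. The summed Vmn1r mean of 13.0 was 11.4 without Vmn1r181. A tolerance 10 times wider left 81 members with a single solution, and 1 that was 10 times narrower left 73. Without Apoe4 library E, chosen after seeing the data, 13 of the 15 genes from Vmn2r65 to Vmn2r79 were detected, beside 28 of the other 105 Vmn2r genes (26.7%). With each library left out, the Apoe4 mean of Vmn2r79 lay between 1.81 and 3.72 times the Apoe3 floor. The number of members with reads in Apoe4 libraries only then lay between 25 and 48. The ratio of summed reads of the solved members lay between 1.45 and 1.98 with each library left out, also chosen after seeing the data. No paired analysis was possible because no column of the deposited table carries a replicate number, and for the same reason the gene tests could not be repeated without single replicates.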

Other observations

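Of the 8 vomeronasal receptor pseudogenes in the table, 2 had reads. Vmn2r-ps11 had 1 read in Apoe3 library B, 1 in Apoe4 library A and 2 in Apoe4 library D. Vmn1r207-ps had 1 read, in Apoe4 library B.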
